A study of Rattus norvegicus with 4 samples.

Results

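Chemokines are small secreted proteins that attract leukocytes along a gradient, and they are sorted into CC, CXC and CX3C classes by the spacing of their first conserved cysteines. Each binds G protein-coupled receptors on the cells it recruits, and many are induced through NF-kB or through interferon signalling. Hepatic stellate cells, the liver cells that make collagen in fibrosis, are known to secrete several of them. The 10 ligand genes described here were chosen by symbol: Ccl2, Ccl5, Ccl7 and Ccl20 of the CC class, Cxcl1, Cxcl10, Cxcl11, Cxcl12 and Cxcl16 of the CXC class, and Cx3cl1 of the CX3C class. This choice was made with earlier results of these data known. Each symbol stood on 1 row of the 32883 genes in the table.

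RNA was sequenced from HSC-T6, a line of immortalised rat hepatic stellate cells. The tested cells had been given GRK1, which the series title spells Ginsenoside RK1 and which is written Rk1 below, a saponin of heated ginseng. They were compared with HSC-T6 cells that received no treatment, at 2 libraries per group, and n = 2 per group holds throughout. The labels name no dose, duration or vehicle, and all values come from this single line.

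Libraries held 18008586 and 18125005 counts in Rk1 cells, and 20430930 and 18175053 counts in untreated cells. A floor of 3 counts corresponds to at most 0.167 CPM (counts scaled to library size) and covers counting error only. Whether replicate libraries stem from separate cultures is not stated in the labels, so the p-values reflect the spread among these 4 libraries, and that spread may be technical. Of 9 stellate or myofibroblast markers, 7 were abundant enough to be tested, and Lrat and Reln were at 0 in every library. Of the 7, 4 (Acta2, Col1a1, Col3a1 and Gfap) fell with Rk1, where 10.5% of all tested genes fell. Acta2 and Gfap had few counts, 6 to 73 and 12 to 80 per library. Des, Pdgfrb and Vim were not called, with log2 fold changes of 0.37, -0.31 and -0.08. Both Rk1 libraries were above both untreated libraries for Des, and below them for Pdgfrb and Vim. Of all tested genes, 32.1% had the first order and 30.9% the second. The summed level of these markers, mostly Col1a1 and Col3a1, was 11840 to 11930 CPM in Rk1 cells and 17694 to 18739 CPM in untreated cells. The pan-leukocyte gene Ptprc and the macrophage genes Adgre1, Cd163 and Marco were at 0 in all libraries, and the 5 lymphocyte markers summed to at most 0.110 CPM with Rk1 and 0.197 CPM without. Among the 8 macrophage markers, Cd14, which stromal cells also express, rose, and the list summed to 55.5 to 56.2 CPM with Rk1 and 43.8 to 46.3 CPM without. Their part in the chemokine results was not tested. In bulk RNA, fewer cells of a kind and less RNA per cell cannot be told apart.

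Upstream sequence is shown for 4 of the genes, because Cxcl10 and Cxcl11 lie side by side and both fell, Cxcl12 had the steadiest fall, and Cxcl1 was not called. RefSeq windows on assembly GRCr8 were at hand for 8 of the 10 genes, and the 250 bases before the annotated start are printed 5′ to 3′. The windows are Cxcl10 at chr14:15988816-15989065 (plus strand), Cxcl11 at chr14:15973478-15973727 (plus strand), Cxcl1 at chr14:17479322-17479571 (minus strand) and Cxcl12 at chr4:152060531-152060780 (plus strand). Capitals mark matches, on either strand, to the NF-kB (kB) consensus, the interferon-stimulated response element core (GAAA, any 2 bases, GAAA), the gamma-activated sequence TTCNNNGAA, or the AP-1 motif TGANTCA.
Cxcl10: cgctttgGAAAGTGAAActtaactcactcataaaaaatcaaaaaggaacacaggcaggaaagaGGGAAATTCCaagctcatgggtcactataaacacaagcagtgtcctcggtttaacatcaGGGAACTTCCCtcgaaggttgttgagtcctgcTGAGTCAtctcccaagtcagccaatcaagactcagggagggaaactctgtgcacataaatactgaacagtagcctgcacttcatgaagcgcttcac
Cxcl11: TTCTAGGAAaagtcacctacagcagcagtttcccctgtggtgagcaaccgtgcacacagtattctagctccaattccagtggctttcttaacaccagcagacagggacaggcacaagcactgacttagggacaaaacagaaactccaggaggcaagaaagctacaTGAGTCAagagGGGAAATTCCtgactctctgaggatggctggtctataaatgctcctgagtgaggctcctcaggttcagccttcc
Cxcl1: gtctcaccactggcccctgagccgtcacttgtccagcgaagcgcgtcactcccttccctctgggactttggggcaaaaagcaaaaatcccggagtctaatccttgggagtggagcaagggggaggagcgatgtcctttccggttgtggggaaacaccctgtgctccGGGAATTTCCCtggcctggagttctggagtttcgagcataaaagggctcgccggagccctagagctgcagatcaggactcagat
Cxcl12: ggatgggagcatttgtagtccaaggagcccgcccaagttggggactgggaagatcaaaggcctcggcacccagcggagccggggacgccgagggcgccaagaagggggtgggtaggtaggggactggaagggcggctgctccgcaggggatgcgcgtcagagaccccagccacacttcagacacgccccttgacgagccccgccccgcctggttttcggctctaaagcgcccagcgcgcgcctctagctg

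In these windows the Cxcl10 sequence held 2 kB matches, starting 187 and 128 bases before the gene, 1 response element core starting 243 bases before it and 1 AP-1 match. Cxcl11 held 1 kB match starting 74 bases before the gene, 1 gamma-activated sequence and 1 AP-1 match. Cxcl1 held 1 kB match starting 84 bases before its start. Ccl7 and Ccl20, not printed, each held 1 kB match, and Ccl7 also held 1 AP-1 match. The windows of Cxcl12, Cxcl16 and Cx3cl1 held none of the 4 motifs. None of these matches overlapped a match to another of the motifs. Over all 33469 RefSeq windows of this length, 6.33% held a kB match, 3.41% the response element core, 7.67% the gamma-activated sequence and 6.34% the AP-1 motif. Genes with and without a kB match stood both among those that fell and among those not called, and a match describes letters, not binding.

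Of the 10 chemokine genes, 6 fell with Rk1 and 0 rose. The genes that fell were Ccl5, Ccl7, Cxcl10, Cxcl11, Cxcl12 and Cx3cl1, and Ccl2, Ccl20, Cxcl1 and Cxcl16 were not called. In edgeR's quasi-likelihood test with Benjamini-Hochberg adjustment over 12316 genes, 10.5% of all tested genes were called lower, 11.5% higher and 22.0% either way. All 10 members passed the filter on low counts and stood above its cutoff in all 4 libraries, so none was tested through 1 group alone. Both Rk1 libraries lay below both untreated libraries for 7 members, the 6 called and Ccl20, against 30.9% of all tested genes. The opposite order was found for 0 members and for 32.1% of tested genes. The median log2 fold change was -0.91 over the members and 0.0011 over all tested genes. Because the members were chosen with earlier results of these data known, these contrasts with all tested genes are a description. The number called was 5 without Rk1 replicate 1, 4 by DESeq2, another count model, and 3 with robust dispersions, the edgeR option that sets apart genes of unusual spread. Ccl5, Cx3cl1 and Cxcl12 passed under all 13 alternative settings.

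**Figure D1:**
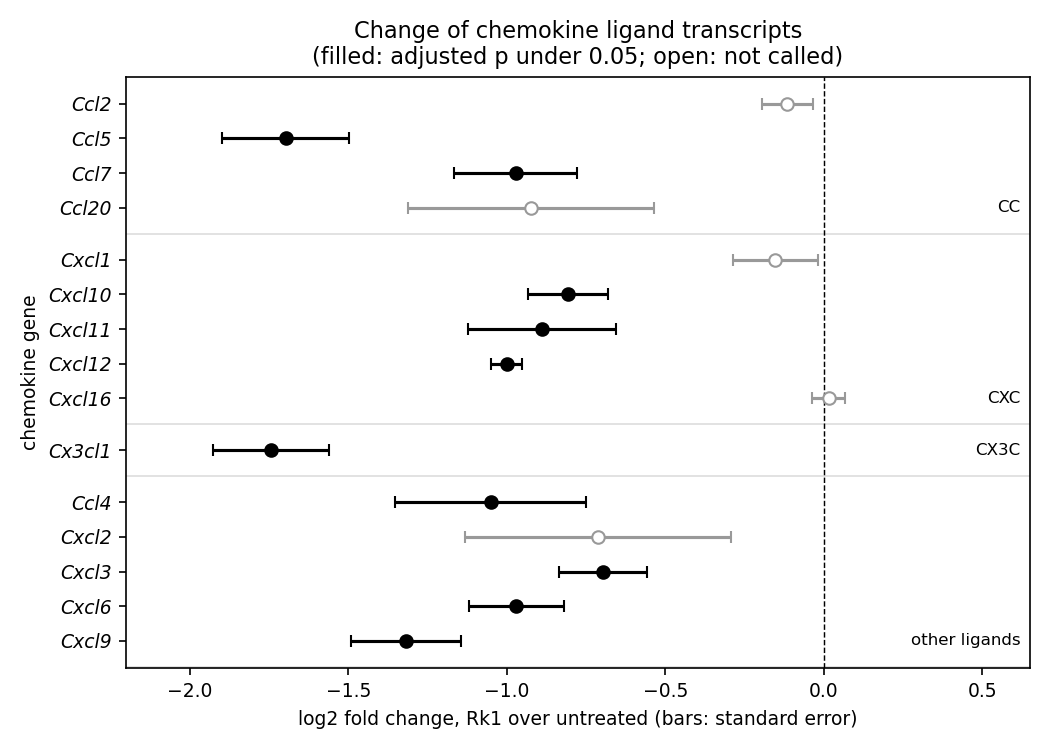
Log2 fold change of each chemokine ligand gene that could be tested, Rk1 over untreated (horizontal axis), with its standard error, grouped by class; filled points have an adjusted p under 0.05. Cx3cl1 and Ccl5 lie farthest to the left at -1.74 and -1.70, and Ccl2, Cxcl1 and Cxcl16 lie near 0.

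Levels between genes were compared as CPM per kilobase of annotated exon. Cxcl10 was the most abundant member in both conditions, at 785 ± 142 CPM per kilobase in Rk1 cells and 1373 ± 183 in untreated cells (SD). Ccl2 came next at 195 ± 18.5 CPM per kilobase with Rk1 and 211 ± 19.0 without, and both genes stood well apart from the rest. In Rk1 cells the order continued with Cxcl16 (53.3 ± 0.67 CPM per kilobase), Ccl7 (50 ± 18.6), Cxcl1 (38.2 ± 7.2), Cxcl12 (24.6 ± 0.37), Ccl5 (12.1 ± 3.7) and Cxcl11 (7.02 ± 1.7). In untreated cells it ran Ccl7 (98.2 ± 2.6 CPM per kilobase), Cxcl16 (52.7 ± 2.6), Cxcl12 (49.2 ± 2.0), Cxcl1 (42.6 ± 5.9), Ccl5 (39.4 ± 6.0) and Cxcl11 (13.0 ± 4.0). With Rk1 the library values of Ccl7 overlapped those of both Cxcl16 and Cxcl1, and without it those of Cxcl1 and Ccl5 overlapped. Cxcl16 and Cxcl12 in untreated cells did not overlap, but their nearest values were 50.9 and 50.6 CPM per kilobase and their means lay within the summed SDs. Cx3cl1 and Ccl20 were the lowest, at 1.07 ± 0.13 and 1.19 ± 0.012 CPM per kilobase with Rk1, and at 3.58 ± 0.71 and 2.29 ± 1.1 without. In untreated cells the nearest library values of this pair were 3.08 and 3.07 CPM per kilobase.

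**Figure D2:**
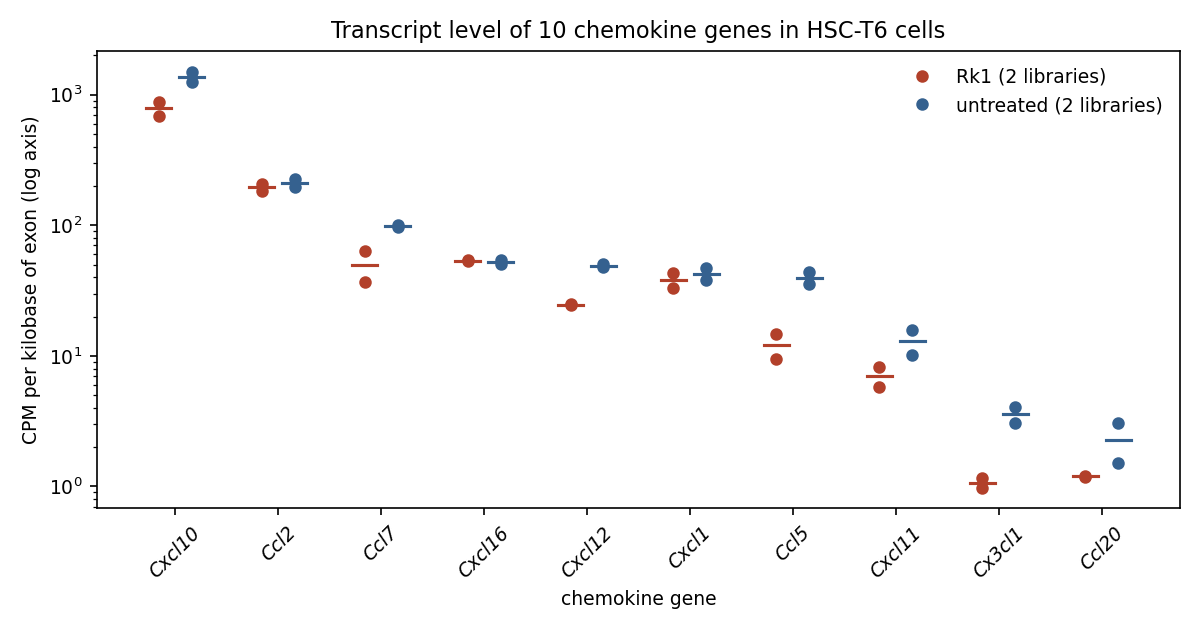
CPM per kilobase of exon (log axis) of each of the 10 chemokine genes, with a point per library and a bar at the mean of the 2 libraries, Rk1 left and untreated right. Cxcl10 is the highest in both groups, and the Rk1 points of Cxcl12, Ccl5 and Cx3cl1 lie clear of the untreated points.

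Together the 10 genes held 1231 and 1523 CPM in Rk1 cells, against 2442 and 2093 CPM in untreated cells. As a share of all counts this was 0.123% and 0.153% in Rk1 cells, against 0.243% and 0.21% in untreated cells. Cxcl10 alone supplied 63.1% and 65.9% of the members' CPM with Rk1, against 69.8% and 67.4% without, so the sum followed that gene. The 5 CXC genes held 1038 and 1283 CPM with Rk1, against 2131 and 1815 CPM without. For the 4 CC genes the sums were 190 and 237 CPM with Rk1, against 298 and 269 CPM without. By class, 2 of 4 CC genes fell with a median log2 fold change of -0.95, and 3 of 5 CXC genes fell with a median of -0.81. Over all tested genes, 10.5% were called lower. By DESeq2, 1 CC and 2 CXC genes were called lower, and with robust dispersions 1 CC and 1 CXC gene. More CC genes and fewer CXC genes were called lower without untreated replicate 1, and fewer CXC genes without Rk1 replicate 1. Cx3cl1 is the single CX3C ligand. A difference between classes was not tested.

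Ccl2 encodes the monocyte attractant MCP-1, which acts on the receptor CCR2. Its gene (ENSRNOG00000007159, Rnor_6.0 chromosome 10, 69412017 to 69413870, plus strand) had 152 and 174 CPM in Rk1 cells, against 188 and 165 CPM in untreated cells. The groups overlapped. Its log2 fold change was -0.11 ± 0.08 (SE, adjusted p = 0.356), with a 95% interval of -0.30 to 0.08.

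Ccl7, which encodes MCP-3, another attractant of monocytes, lies 9216 bases downstream of Ccl2 on the same strand (ENSRNOG00000000239, 69423086 to 69424979). It had 31.3 and 53.7 CPM in Rk1 cells, against 85.0 and 81.8 CPM in untreated cells. Both Rk1 libraries were lower, and they differed from each other 1.71-fold. Ccl7 fell 1.96-fold (log2 fold change -0.97 ± 0.19, edgeR adjusted p = 0.012). The change was -0.64 without Rk1 replicate 1 and -1.41 without Rk1 replicate 2, and adjusted p was 0.063 by DESeq2 and 0.217 with robust dispersions. Ccl7 CPM amounted to 20.6% and 30.8% of Ccl2 CPM in Rk1 libraries, against 45.3% and 49.5% in untreated libraries. Across the 4 libraries the exact permutation test of this ratio, two-sided, gave p = 0.333, which is the smallest p the design allows.

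Ccl5 encodes RANTES, which draws T cells and monocytes. This gene (ENSRNOG00000010906, chromosome 10, 70739800 to 70744315, minus strand) had 93 and 147 counts in Rk1 cells, against 483 and 349 counts in untreated cells. These correspond to 5.18 and 8.07 CPM with Rk1, against 23.8 and 19.2 CPM without. The groups were far apart, and Ccl5 fell 3.24-fold (-1.70 ± 0.20, edgeR adjusted p = 0.0013). Leaving out each library in turn gave -2.05 to -1.41.

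Ccl20 encodes the ligand of CCR6, which directs dendritic cells and Th17 cells, and it had few counts. This gene (ENSRNOG00000015992, chromosome 9, 88918433 to 88921001, plus strand) had 17 and 17 counts in Rk1 cells, against 24 and 44 counts in untreated cells. The Rk1 libraries were the lower, but 1 of the untreated libraries lay close to them. The log2 fold change was -0.92 ± 0.39 (edgeR adjusted p = 0.133), with a 95% interval of -1.83 to -0.01 before adjustment. It was called without untreated replicate 1 (-1.36, adjusted p = 0.034), while without untreated replicate 2 the value was -0.34.

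Cxcl10 and Cxcl11 encode interferon-inducible ligands of CXCR3, the receptor of activated T cells and natural killer cells. Cxcl10 (ENSRNOG00000022256, chromosome 14, 17210733 to 17212930, plus strand) had 776 and 1003 CPM in Rk1 cells, against 1703 and 1410 CPM in untreated cells. Every Rk1 library was below every untreated library, and within groups the libraries differed 1.29-fold with Rk1 and 1.21-fold without. Cxcl10 fell 1.75-fold (-0.81 ± 0.13, edgeR adjusted p = 0.0044), and was not called with robust dispersions (adjusted p = 0.139). The annotated gene Art3 overlaps Cxcl10 and Cxcl11 on the opposite strand. At 0.359 CPM with Rk1 and 0.582 CPM without, Art3 held few counts.

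Cxcl11 (ENSRNOG00000022298, chromosome 14, 17195014 to 17198291, plus strand) lies 12442 bases upstream of Cxcl10. It had 9.02 and 12.8 CPM in Rk1 cells, against 24.6 and 15.8 CPM in untreated cells. The groups did not overlap, but the nearest libraries were close. Cxcl11 fell 1.85-fold (-0.89 ± 0.23, edgeR adjusted p = 0.033). This call was lost without Rk1 replicate 1 (-0.66, adjusted p = 0.109), without untreated replicate 1 (-0.53, adjusted p = 0.087), by DESeq2 (adjusted p = 0.145) and with robust dispersions (adjusted p = 0.226). Cxcl11 CPM amounted to 1.16% and 1.28% of Cxcl10 CPM in Rk1 libraries, against 1.45% and 1.12% in untreated libraries, so these ratios overlapped.

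Cxcl12 encodes SDF-1, the ligand of CXCR4 that retains haematopoietic cells and lymphocytes in stroma. This gene (ENSRNOG00000013589, chromosome 4, 149261044 to 149273891, plus strand) had 132 and 135 CPM in Rk1 cells, against 274 and 259 CPM in untreated cells. Replicates were close in both groups, and the groups were far apart. Cxcl12 fell 2.0-fold (-1.0 ± 0.05, edgeR adjusted p = 4.1e-05). Over the 13 alternatives its change ran from -1.05 to -0.96.

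Cxcl1, a neutrophil attractant of the CXCR2 ligand group, was not called. This gene (ENSRNOG00000002802, chromosome 14, 18743685 to 18745457, minus strand) had 30.7 and 40.1 CPM in Rk1 cells, against 35.6 and 43.3 CPM in untreated cells. The groups overlapped, and the log2 fold change was -0.15 ± 0.14 (edgeR adjusted p = 0.467, 95% interval -0.47 to 0.16). The sign turned without Rk1 replicate 1 (0.028).

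Cxcl16 and Cx3cl1 encode the transmembrane chemokines, which are anchored by a mucin stalk until ADAM10 or ADAM17 sheds them. Cxcl16, the ligand of CXCR6 and a scavenger of oxidised lipoprotein, was not called. Its gene (ENSRNOG00000026647, chromosome 10, 57060007 to 57064600, minus strand) had 90.1 and 91.7 CPM in Rk1 cells, against 93.1 and 86.7 CPM in untreated cells. The groups overlapped, and the log2 fold change was 0.02 ± 0.05 (edgeR adjusted p = 0.869). The 95% interval was -0.11 to 0.14, and the sign turned with upper-quartile scaling (-0.012) and without untreated replicate 2 (-0.045). Zmynd15 overlaps Cxcl16 on the opposite strand and held 4.37 CPM with Rk1 and 3.92 CPM without.

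Cx3cl1 encodes fractalkine, the ligand of CX3CR1 on monocytes and natural killer cells, and it had few counts. This gene (ENSRNOG00000016326, chromosome 19, 10644244 to 10653800, minus strand) had 55 and 66 counts in Rk1 cells, against 259 and 175 counts in untreated cells. In CPM this was 3.06 and 3.62 with Rk1, against 12.8 and 9.62 without, with wide separation. Cx3cl1 fell 3.35-fold (-1.74 ± 0.18, edgeR adjusted p = 8.6e-04), and leaving out each library gave -1.94 to -1.52. Cx3cl1 CPM amounted to 3.40% and 3.95% of Cxcl16 CPM in Rk1 libraries, against 13.7% and 11.1% in untreated libraries. The exact permutation test of that ratio gave p = 0.333, again the smallest p possible with 2 libraries against 2.

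**Figure D3:**
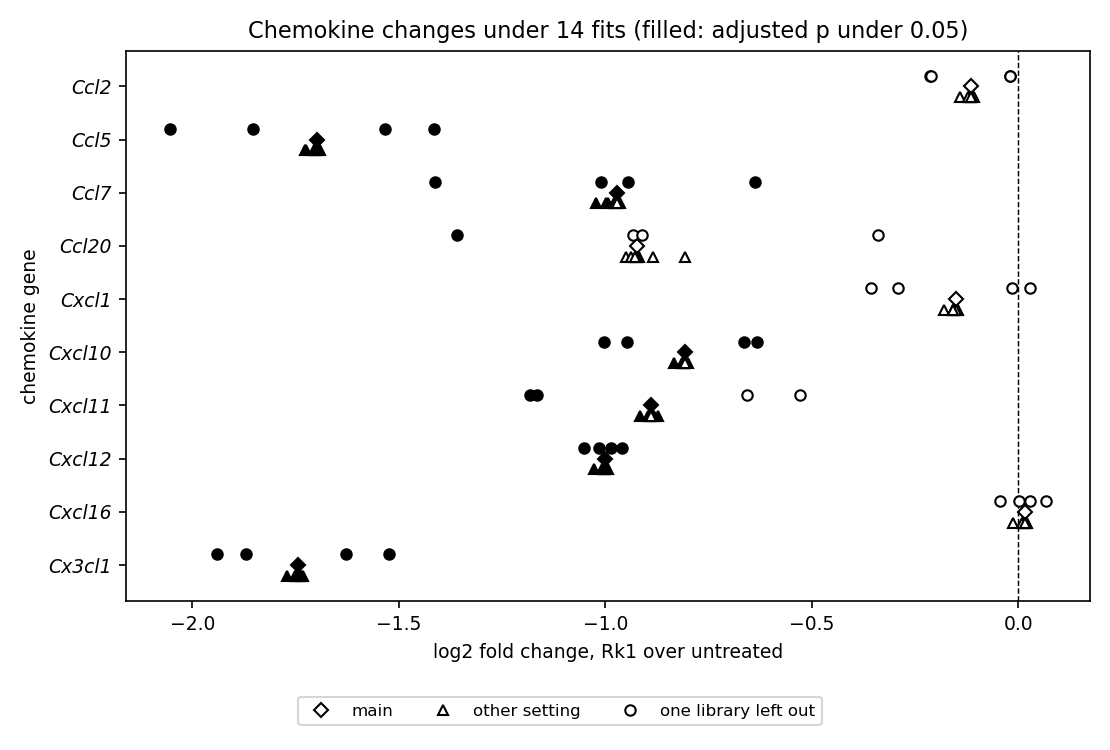
Log2 fold change of each chemokine gene, Rk1 over untreated (horizontal axis), as reported (diamonds), with a library left out (circles) and under other settings (triangles); filled symbols have an adjusted p under 0.05. Symbols of Cxcl12 cluster between -1.05 and -0.96, those of Ccl7 spread from -1.41 to -0.64, and those of Cxcl16 lie on both sides of 0.

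The Rk1 libraries were not alike for several members. Ccl5, Ccl7, Cxcl1, Cxcl10 and Cxcl11 were 1.29-fold to 1.71-fold higher in Rk1 replicate 2 than in Rk1 replicate 1, whereas the Rk1 libraries of Cxcl12, Cxcl16 and Ccl20 differed by at most 1.02-fold. In untreated cells, replicate 1 exceeded replicate 2 for Cxcl11 by 1.56-fold, for Cx3cl1 by 1.33-fold and for Ccl5 by 1.24-fold. The opposite order was found for Ccl20 and Cxcl1, whose replicate 1 was at 0.489 and 0.821 of replicate 2. The median over the members was -0.65 without Rk1 replicate 1, against -0.91 with all libraries.

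Likeness of profile was measured as the Euclidean distance between log2 CPM centred on each gene's mean over the 4 libraries, against 9472 other genes. Nearest to Cxcl10 were Irf7 (distance 0.034, log2 fold change -0.82 ± 0.11), Ifit2 (0.042, -0.81 ± 0.13) and Ifi47 (0.083, -0.80 ± 0.13). Nearest to Cxcl12 were Pitpnm3 (distance 0.059, log2 fold change -0.98 ± 0.10), Mgll (0.070, -1.01 ± 0.12) and Tnc (0.071, -1.01 ± 0.05). With 4 libraries in 2 groups many genes have similar profiles, and the choice by likeness to a gene that fell fixes the direction of all 6, so the distances and the changes are a description.

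**Figure D4:**
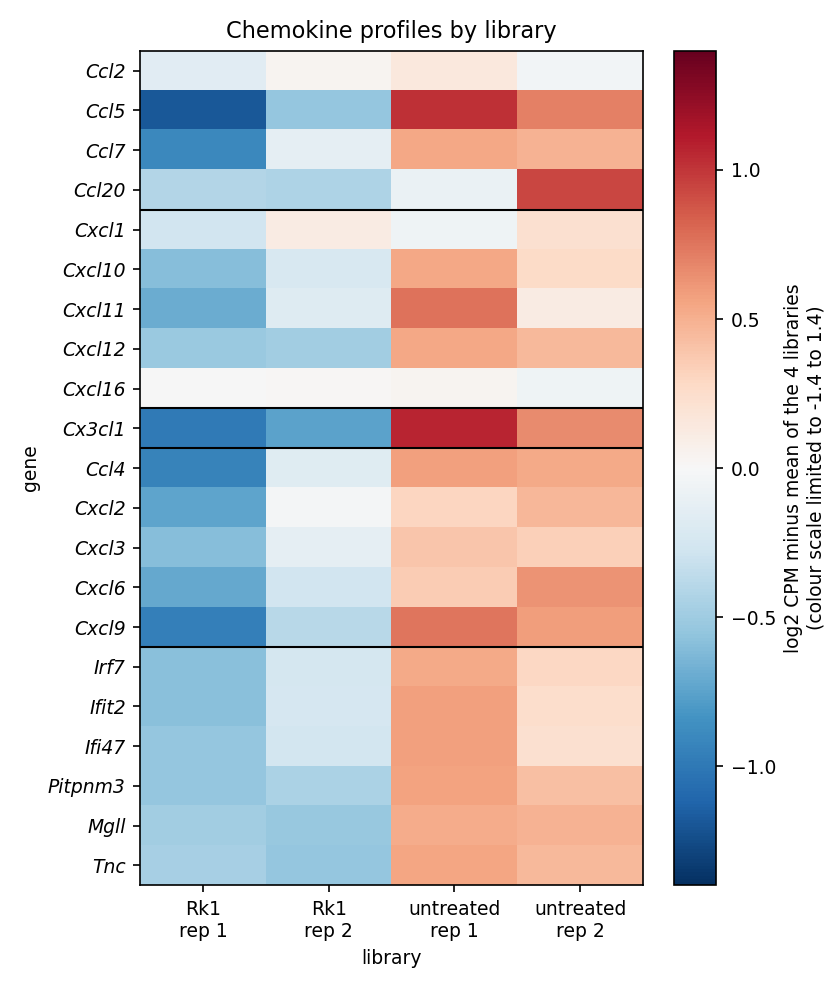
Log2 CPM minus the mean of the 4 libraries (colour) for the 10 members by class, the other tested ligands, and the 6 genes nearest in profile to Cxcl10 or Cxcl12, with a column per library. Rk1 columns are lower for most genes, replicate 1 more than replicate 2 for Ccl7 and Cxcl10, while Cxcl16 stays close to its mean in all 4 libraries.

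The rest of the ligand family was mostly low or absent. Of 26 other chemokine ligand genes, 5 were abundant enough to be tested and 21 were below the filter, 10 of them at 0 counts in every library. Among the 5 tested, 4 fell and 0 rose, where 10.5% of all tested genes fell and 11.5% rose. The number lower was 3 by DESeq2. It was also smaller than 4 when Rk1 replicate 1, untreated replicate 1 or untreated replicate 2 was left out. With no filter on low counts the number was 5, which included a ligand otherwise below the filter. Cxcl2 was under the filter's cutoff in Rk1 replicate 1, and the filter selects among these genes by level, so the count is a description.

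Cxcl9, the third CXCR3 ligand, lies 15926 bases downstream of Cxcl10 and had 5.90 and 8.72 CPM in Rk1 cells, against 19.3 and 17.2 CPM in untreated cells. It fell 2.49-fold (-1.32 ± 0.17, edgeR adjusted p = 0.0022), with no overlap. All of the CXCR3 ligand genes Cxcl9, Cxcl10 and Cxcl11 were thus called lower in the fit of all 4 libraries.

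Cxcl6 and Cxcl3 encode neutrophil attractants of the same ligand group as Cxcl1. Cxcl6 had 14.4 and 19.6 CPM with Rk1, against 30.3 and 36.4 CPM without, and fell by 0.97 ± 0.15 on the log2 scale (edgeR adjusted p = 0.0044). Cxcl3 had 14.6 and 20.2 CPM with Rk1, against 28.7 and 27.7 CPM without, and fell by 0.70 ± 0.14 (edgeR adjusted p = 0.012). Cxcl2, of that group too, lies 10294 bases from Cxcl1 and had 6 and 10 counts with Rk1, against 14 and 14 counts without (adjusted p = 0.268). These paralogs are similar in sequence, and the sources used here do not say how reads matching several of them were counted.

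Ccl4, an attractant of monocytes and T cells, had 14 and 24 counts in Rk1 cells, against 45 and 39 counts in untreated cells. It fell by 1.05 ± 0.30 on the log2 scale (edgeR adjusted p = 0.045), and this call was lost without Rk1 replicate 1 (adjusted p = 0.151), untreated replicate 1 (0.129) or untreated replicate 2 (0.108), and by DESeq2 (0.222).

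Signalling receptors for these ligands had few or no counts. Of 18 receptor genes listed, 17 were matched by symbol, 11 had 0 counts in every library and none was abundant enough to be tested. Cxcr4, Cxcr6, Cx3cr1 and Ccr6, the receptors of Cxcl12, Cxcl16, Cx3cl1 and Ccl20, were among those at 0, and 0 counts leave room for at most 0.167 CPM per library. Cxcr3 had 2 and 0 counts in Rk1 cells, against 2 and 3 counts in untreated cells. Cxcr2 had 0 and 2 counts with Rk1, against 0 and 1 count without. Ccr2, the receptor of Ccl2, was not matched and was not analysed here.

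Atypical receptors bind chemokines without G protein signalling. Of 6 listed, 3 were tested and 2 were called lower, where 10.5% of all tested genes were called lower. Ackr2 was at 0 in all libraries, and Ackr1 and Ackr5 were not matched and not analysed here. The number called was 0 by DESeq2 and without Rk1 replicate 1 or untreated replicate 1, and 1 without Rk1 replicate 2 or untreated replicate 2. Ackr3, a scavenger of Cxcl12 and Cxcl11, had 3.40 and 2.96 CPM in Rk1 cells, against 5.27 and 4.51 CPM in untreated cells. Its fall of -0.62 ± 0.18 was barely called (edgeR adjusted p = 0.049), and the call was lost by DESeq2 (0.245). It was also lost with library totals only (edgeR adjusted p = 0.0502) and with no filter on low counts (0.059), where 1 listed gene was called. Nor did the call hold when any 1 library was left out, where the change ran from -0.74 to -0.50. Ccrl2, a related surface protein that presents the attractant chemerin, had 1.28 and 1.48 CPM with Rk1, against 3.94 and 2.42 CPM without. Its fall (-1.20 ± 0.30, edgeR adjusted p = 0.026) was lost without Rk1 replicate 1 (0.076) or untreated replicate 1 (0.153), and by DESeq2 (0.073). Ackr4, a scavenger of CC ligands, was not called (0.13 ± 0.19, adjusted p = 0.675).

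Of 9 tested proteases that shed or trim chemokines, 0 fell and 3 rose, where 10.5% of all tested genes fell and 11.5% rose. Those that rose were Ctsb (log2 fold change 0.32 ± 0.05), Adam10 (0.19 ± 0.04) and Adam9 (0.22 ± 0.05). Adam10, the main constitutive sheddase of Cxcl16 and Cx3cl1, had 215 and 217 CPM in Rk1 cells, against 187 and 193 CPM in untreated cells (edgeR adjusted p = 0.019). The Adam10 call was lost when any 1 library was left out (adjusted p = 0.051 to 0.093), and that of Adam9 without Rk1 replicate 1, untreated replicate 1 or untreated replicate 2 (0.051 to 0.086). Ctss, a cathepsin with few counts, had 0 and 11 counts with Rk1, against 22 and 13 without, and was not called (adjusted p = 0.236). It was called without Rk1 replicate 2 (adjusted p = 0.0086), which leaves the Rk1 library at 0 counts.

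Of the proteoglycans and matrix receptors on which chemokines are held, 6 of 9 were tested, 3 rose and 2 fell, where 11.5% of all tested genes rose and 10.5% fell. The number higher was 2 without untreated replicate 2. Cd44, a hyaluronan receptor, rose by 0.31 ± 0.04 on the log2 scale and Gpc1, a glypican, by 0.32 ± 0.05. Sdc1, a syndecan, fell by 0.30 ± 0.04 and Gpc6, another glypican, by 0.59 ± 0.08.

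Of 17 interferon, IRF and STAT genes tested, 6 fell and 2 rose, where 10.5% of all tested genes were called lower and 11.5% higher, and their median log2 fold change was -0.10. The number lower was 4 by DESeq2 or with robust dispersions. It was smaller still without Rk1 replicate 1 or untreated replicate 1. Without untreated replicate 2 it was also below 6, and without Rk1 replicate 2 it was above 6. The number higher was 0 by DESeq2, with upper-quartile scaling and without Rk1 replicate 1 or untreated replicate 2, and 1 without Rk1 replicate 2 or untreated replicate 1. Irf7, a transcription factor of the interferon response, had 399 and 504 CPM with Rk1, against 864 and 730 CPM without, and its call as lower (edgeR adjusted p = 0.0028) was lost with robust dispersions (0.108). Irf1, another factor of this response, fell by 0.34 ± 0.06 and Irf9, a subunit of an interferon-activated complex, by 0.27 ± 0.06, the last not without Rk1 replicate 1 (adjusted p = 0.066) or untreated replicate 1 (0.056).

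Of 15 NF-kB pathway genes tested, 0 fell and 2 rose, with a median of 0.0053. The share that rose was near the 11.5% of all tested genes. Nfkbia, the inhibitor that NF-kB itself induces, had 54.8 and 57.4 CPM with Rk1, against 41.3 and 34.8 CPM without (0.56 ± 0.08, edgeR adjusted p = 0.0034). Nfkb1, the p105 subunit gene, rose by 0.17 ± 0.05. That call was lost by DESeq2 (adjusted p = 0.215), with upper-quartile scaling (edgeR adjusted p = 0.070) and with a stricter filter on low counts. The Nfkb1 call was also lost when any 1 library was left out. Ikbkb, a kinase of the inhibitor, and Tnfaip3, a feedback deubiquitinase, were not called (0.16 ± 0.06 and -0.33 ± 0.12).

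Among 15 tested receptors and sensors that can induce chemokines, 4 rose and 3 fell, where 11.5% of all tested genes rose and 10.5% fell. The number higher was 2 by DESeq2, and was also smaller than 4 when any 1 library was left out. The number lower was 2 with robust dispersions. Il1r1, the interleukin-1 receptor, rose by 0.35 ± 0.05. Il1rl1, the receptor of interleukin-33, fell by 1.47 ± 0.16, with 3.51 and 4.66 CPM in Rk1 cells, against 11.9 and 10.7 CPM in untreated cells. The cytosolic RNA sensors Ifih1 and Ddx58 fell by 0.46 ± 0.07 and 0.47 ± 0.09, Ddx58 not with robust dispersions (adjusted p = 0.072). Of 7 genes for mRNA decay and stability factors, 1 fell and 0 rose, a share lower that was near the 10.5% of all tested genes. That was Zfp36l1, a factor that degrades AU-rich transcripts (-0.41 ± 0.11), and it was not called without Rk1 replicate 1 (-0.23), untreated replicate 1 or untreated replicate 2 (adjusted p = 0.051 to 0.095) or with robust dispersions (0.089). Khsrp, Hnrnpd and Zfp36l2, of the same list, were not called (-0.12 ± 0.05, -0.09 ± 0.04 and 0.17 ± 0.16).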

How the data were processed

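The 4 HSC-T6 libraries were RNA-seq libraries, and the submitters' processing notes name HISAT2 and HTSeq. Their versions, the strand setting and the treatment of multiply matching reads: not given in the sources used here. Raw counts were deposited per Ensembl gene with exon lengths and Rnor_6.0 positions, per the file headers. Genes were filtered with filterByExpr (minimum count 10, minimum total 15), scaled by TMM and tested in edgeR 4.0.16 (quasi-likelihood, two-sided, group as the only term, 2 residual degrees of freedom, threshold 0.05). CPM use TMM-scaled totals, and the SE is the log2 fold change over the root of F. DESeq2 1.42.0 and limma 3.58.1 served as alternatives. Replicates of a group differed beyond sampling noise (chi-square over its degrees of freedom, 4.49 with Rk1 and 4.39 untreated). Data were simulated for Rk1 against untreated with 12316 genes, and changes were set among genes with a mean of at least 100 counts. There 92% of 1.5-fold and 100% of 2-fold changes were recovered, and 9 of 205 calls were false. Every simulated gene had the same dispersion, so these figures do not cover genes of unusual spread. Alternatives were other scalings and filters, robust dispersions, DESeq2, limma-voom, the replicate block and each library left out. The members and lists were chosen with earlier results of these data known. All members, all tested ligands and receptors, and up to 4 genes per further list with the smallest adjusted p are named, with the 3 nearest profiles of the 2 called members with the highest mean CPM, not scaled by length. Markers, overlapping genes and receptors with few counts, outside this rule, were named after their values were seen. A gene that the rule would name is not reported here.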

Additional observations from a re-analysis of the deposited data

How the results depend on the processing

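The direction of the 6 called chemokine genes held under all 13 alternatives. By DESeq2 all genes called numbered 1712 (859 higher, 853 lower), against 2711 (1422 higher, 1289 lower) in edgeR. With robust dispersions the members called were 3, all lower. Leaving out each library gave 1795 (without untreated replicate 2) to 2186 calls in all, 853 to 1160 higher and 902 to 1026 lower, and 5 to 6 members lower with 0 higher. The members' median ran from -1.01 to -0.65 (lowest size without Rk1 replicate 1). Cxcl16 turned to -0.012 with upper-quartile scaling, and ran from -0.045 (without untreated replicate 2) to 0.067 with libraries left out. Cxcl1 ran from -0.36 to 0.028, the positive value without Rk1 replicate 1. The causes were not tested. Where a library was left out, the lone library of its group was assumed to vary like the other group.

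Titles give both groups replicate numbers 1 and 2, but nothing says that they pair. Deviations of the same-numbered libraries correlated at 0.298 over 9473 genes. With the replicate block 3214 genes and the same number of members, 6, were called, and the members' median was -0.88. Without the block 2711 genes were called, so calls changed for many genes. Among the genes followed one by one under the alternatives, the block changed the call of Ikbkb (edgeR adjusted p = 0.035) and of no other. The markers and Zmynd15 were not followed in this way. Low counts limit Ccl20, Cx3cl1, Ccl4 and Cxcl2.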
